A study of Mus musculus with 13 samples.

Results

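Clones of 3 mouse neural lines were compared with one another inside each line. The lines were cultured neural stem cells, called NSC, induced neural stem cells made out of embryonic fibroblasts, called iNSC, and neural progenitors that had been differentiated out of embryonic stem cells, called ESC NPC. Each line had 3 clones, numbered 1 to 3, and each clone had 1 Illumina bead array, so 9 of the 13 arrays of the series were used. A gene entered for a line if at least 1 of its probes had a detection p-value under 0.01 on all 3 arrays of that line. That gave 7260 genes for NSC, 7187 for iNSC and 7647 for ESC NPC, or 8499 different genes in all, of 16593 genes with a named probe, and 6343 genes entered in every line. For each gene the deviation of a clone is its log2 signal minus the mean of the 3 clones of its line, and the range is the highest clone minus the lowest. A range of 1 on the log2 scale is a 2-fold difference.

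All samples are labelled strain C3H, and the labels name no treatment, sex, age or culture condition that differs between clones. Nothing in the labels says whether clones of the same line came from separate animals, conversions or differentiations. With 1 array per clone, a stable difference between clones, the state of the culture on the day of harvest and the error of the array cannot be told apart. RNA was measured in bulk, so fewer cells of a type and less RNA per cell cannot be told apart either.

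Several gene programmes are known to move in cultured neural stem cells. Cells passing through the cycle switch on DNA replication genes in S phase under E2F factors, and genes for the spindle, kinetochores and chromosome segregation in G2 and mitosis, many of them through CCAAT boxes and the cell cycle genes homology region (CHR) of their promoters. EGF and FGF, the usual mitogens of these cultures, act through ERK, which induces immediate early genes such as Fos and Egr1 and its own feedback inhibitors such as Dusp6. When mitogens are low, neural stem cells can leave the cycle and differentiate into astrocytes, neurons and oligodendrocytes. Low oxygen stabilises HIF factors, which raise glycolytic genes and Vegfa by binding sites with the core ACGTG.

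The promoters of 4 mitotic genes are shown because the mitosis list held the most genes with a wide spread in both NSC and iNSC. The sequences are RefSeq's for build GRCm38.p6, from 250 bases before the first listed start to 30 bases after it, read 5′ to 3′ along the gene. Capitals mark CCAAT or its complement ATTGG and the CHR letters TTTGAA or their complement TTCAAA. Cdc20 lies at chr4:118437314-118437593, minus strand, Cenpa at chr5:30666636-30666915, plus strand, Cdca3 at chr6:124829926-124830205, plus strand, and Plk1 at chr7:122159185-122159464, plus strand.
Cdc20: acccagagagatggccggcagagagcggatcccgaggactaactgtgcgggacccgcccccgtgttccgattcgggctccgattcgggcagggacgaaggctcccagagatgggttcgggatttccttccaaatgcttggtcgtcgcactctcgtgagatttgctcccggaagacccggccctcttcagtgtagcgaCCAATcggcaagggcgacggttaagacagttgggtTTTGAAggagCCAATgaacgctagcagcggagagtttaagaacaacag
Cenpa: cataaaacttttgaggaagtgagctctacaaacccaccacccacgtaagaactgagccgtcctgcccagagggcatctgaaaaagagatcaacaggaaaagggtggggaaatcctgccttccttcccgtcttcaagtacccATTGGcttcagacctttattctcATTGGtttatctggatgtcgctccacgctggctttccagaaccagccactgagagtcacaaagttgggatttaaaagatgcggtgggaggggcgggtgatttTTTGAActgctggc
Cdca3: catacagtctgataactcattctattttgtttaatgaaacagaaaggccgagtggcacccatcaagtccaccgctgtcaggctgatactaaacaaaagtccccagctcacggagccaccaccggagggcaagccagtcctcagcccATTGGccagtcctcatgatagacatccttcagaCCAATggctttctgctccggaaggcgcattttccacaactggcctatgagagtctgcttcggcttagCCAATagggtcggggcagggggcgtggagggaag
Plk1: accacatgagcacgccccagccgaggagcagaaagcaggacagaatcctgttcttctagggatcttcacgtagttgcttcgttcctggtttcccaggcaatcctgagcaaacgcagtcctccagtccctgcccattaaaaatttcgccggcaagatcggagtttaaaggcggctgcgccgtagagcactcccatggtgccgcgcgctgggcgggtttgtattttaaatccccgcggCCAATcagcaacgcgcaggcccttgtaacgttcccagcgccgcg
The window of Cdc20 held 2 CCAAT boxes and 1 CHR, and so did that of Cenpa. Cdca3 had 3 CCAAT boxes and Plk1 had 1, and neither window held the letters TTTGAA. Of 42 genes of the mitosis list detected in all NSC clones, 35 had a RefSeq promoter, and 71.4% of these held CCAAT on either strand, against 36.6% of all 27025 promoters. TTTGAA stood in 60.0% of them, against 17.4% of all, and both motifs in 48.6%, against 6.54%. Of the 6014 promoters of genes detected in NSC, 39.5% held CCAAT, 10.7% TTTGAA and 4.51% both. These shares describe the members of the list, not their spread between clones. For the S phase list, with 36 promoters, the shares were 50% for CCAAT and 13.9% for TTTGAA. Among the other genes that spread at least 2-fold in NSC with NSC-2 lowest, outside the cell cycle lists, 44.5% of 218 promoters held CCAAT and 11% held TTTGAA, against 39.5% and 10.7% of the 6014 promoters of genes detected in NSC.

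The 9 arrays detected 40.8% to 45.8% of the 25697 probes, with median signals of 102 to 108 intensity units, and iNSC-2 had the lowest share. Of the 7 neural stem markers with a probe, 6 were detected on every NSC and iNSC array and 5 on every ESC NPC array; Pax6 was detected on none of the 9. Sox2, which sustains the neural stem state, stood at 8.36, 8.49 and 8.31 in the 3 NSC clones, at 7.98, 8.64 and 8.56 in iNSC, and at 7.80, 7.65 and 7.82 in ESC NPC. The ESC NPC arrays also detected all 3 pluripotency markers, with Pou5f1 at 10.23, 10.03 and 10.09, whereas no NSC or iNSC array detected Pou5f1. The ESC NPC clones, labelled as neural progenitors, thus held pluripotency transcripts at a like level in every clone, and none of them detected Pax6, Olig2, Gfap or S100b. The microglial markers Aif1 and Cx3cr1 and the endothelial markers Pecam1 and Kdr were detected on none of the 9 arrays. Of the wider lists for these cell types, 2 microglial and macrophage genes and 3 endothelial and pericyte genes were detected in all ESC NPC clones, and Flt1, an endothelial receptor of VEGF, in all iNSC clones.

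The clones of the 3 lines spread to very different extents. At least a 2-fold range was reached by 606 of 7260 genes in NSC (8.35%), by 280 of 7187 in iNSC (3.9%) and by 1 of 7647 in ESC NPC (0.0131%). A 4-fold range was reached by 120, 38 and 0 genes in the 3 lines. The median SD of a gene over the clones was 0.194 in NSC on the log2 scale, against 0.170 for iNSC and 0.101 for ESC NPC (n = 3 clones each). Between arrays, the correlation across genes was 0.952 to 0.977 in NSC, 0.973 to 0.986 in iNSC and 0.995 to 0.996 in ESC NPC. The lowest value was that between NSC-2 and NSC-3. Without NSC-2, 219 genes of NSC had a 2-fold range, and without NSC-3, 233 did. Without iNSC-1 the count in iNSC was 110, and without iNSC-2 it was 77. The spread in NSC and iNSC was not confined to dim genes: the 1815 brightest genes of NSC, with means of 9.24 and above, still held 98 genes with a 2-fold range, and the 1797 brightest of iNSC held 49.

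**Figure D1:**
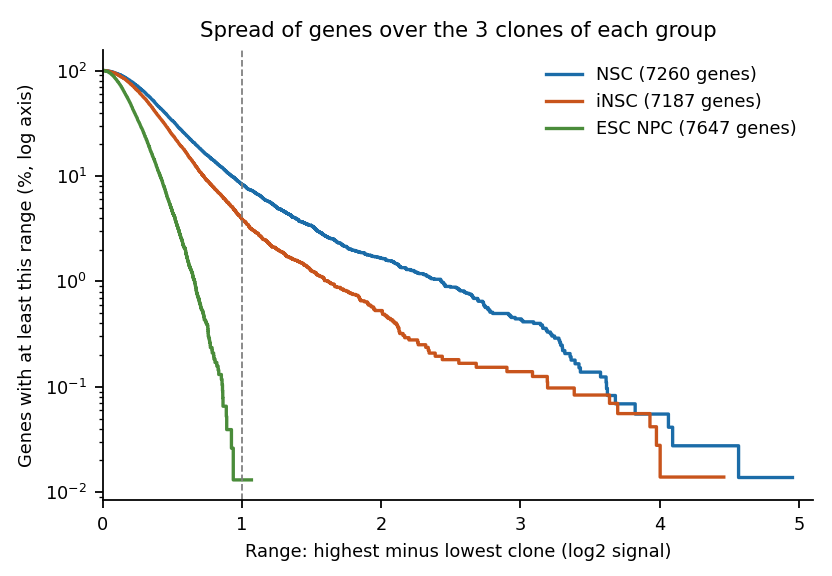
Share of genes, on a log axis, whose range over the 3 clones (highest minus lowest log2 signal) is at least the value on the x axis, for NSC, iNSC and ESC NPC. The dashed line marks a 2-fold range, which 8.35%, 3.9% and 0.0131% of genes reach, and the widest ranges are 4.95, 4.46 and 1.07.

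Genes with a second probe gave a check that does not share the first probe's beads. In NSC, 110 genes with a 2-fold range had another probe detected on all 3 arrays, and in 93 of them (84.5%) that probe put the same clones highest and lowest. In iNSC this held for 42 of 45 genes (93.3%). For genes with a range under 0.5 it held for 39.7% in NSC and 38.4% in iNSC. In ESC NPC it held for 23.3% of all 1823 genes with a second probe, and the deviations of the first and second probe correlated across genes at 0.244, 0.150 and 0.086 in ESC NPC-1, ESC NPC-2 and ESC NPC-3. The same correlations were 0.716, 0.855 and 0.826 in the NSC clones and 0.747, 0.778 and 0.635 in the iNSC clones, across genes that are not independent. A second probe thus repeated most of the wide differences in NSC and iNSC.

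The widest ranges in NSC belonged to Enpp6, Lgals1, Mbp, Cdca3, Plk1, Tk1, Tubb6 and Cdc20. In iNSC they belonged to Cenpa, Cdc20, Plk1, Pbk, Cdca3, Igfbp2, Prc1 and Kif22, of which only Igfbp2 is not a gene of the mitosis list. The clones did not share the spread evenly. Of the summed squared deviations in NSC, NSC-2 carried 41.1% and NSC-3 42.7%, against 16.3% in NSC-1. In iNSC, iNSC-1 carried 36.3%, iNSC-2 43.2% and iNSC-3 20.5%. Of the 606 genes with a 2-fold range in NSC, 261 (43.1%) ran in the order NSC-2, NSC-1, NSC-3 from low to high, against 21.8% of all NSC genes. A further 169 (27.9%) ran in the order NSC-3, NSC-1, NSC-2, as did 27.9% of all genes. Of the 280 such genes in iNSC, 103 (36.8%) ran in the order iNSC-2, iNSC-3, iNSC-1, against 19.8% of all iNSC genes.

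Of the 38 lists, that of mitosis held the most genes with a 2-fold range. In NSC, 39 of 42 mitosis and G2/M genes had a 2-fold range, against 8.35% of all genes. NSC-3 was the highest clone for all 42 and NSC-2 the lowest for 40, against 35.8% and 31.0% of all genes. The median deviation of the list was 0.20 in NSC-1, -1.45 in NSC-2 and 1.28 in NSC-3 on the log2 scale. Cdc20, which activates the ubiquitin ligase that ends metaphase, had log2 signals of 10.20, 7.67 and 11.29 in NSC-1, NSC-2 and NSC-3. Its second probe differed by 3.47 between the same highest and lowest clones, against 3.62 for the first probe. Plk1, a kinase of mitotic entry and spindle assembly, stood at 9.71, 7.23 and 11.06. Cdca3, a cofactor for the destruction of a mitotic inhibitor, stood at 10.60, 7.41 and 11.47. Each of these genes was lowest in NSC-2 and more than 12-fold higher in NSC-3. Top2a, the topoisomerase that untangles sister chromatids, showed the same order with 7.31, 5.83 and 8.50. A further 9 list genes, among them Ccna2 and Ube2c, were detected in NSC-1 and NSC-3 but not in NSC-2, and so had no measured range. The spread was not that of NSC-2 alone, since 25 of the 42 genes kept a 2-fold range between NSC-1 and NSC-3.

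The same list split the iNSC clones in another way. Of 24 mitosis and G2/M genes detected in all 3 clones, 20 had a 2-fold range, against 3.9% of all genes, and iNSC-2 was lowest for 23, against 33.7% of all genes. The median deviations were 0.59 in iNSC-1, -1.38 in iNSC-2 and 0.82 in iNSC-3. Cenpa, the centromeric form of histone H3, stood at 11.35, 7.15 and 11.61 in iNSC-1, iNSC-2 and iNSC-3, which is a 22.0-fold range. Cdc20 stood at 9.78, 5.89 and 9.89, and Plk1 at 9.07, 5.36 and 9.34. In all 3 genes iNSC-1 and iNSC-3 lay within 0.3 of each other and iNSC-2 lay far below. The size depends on the processing for low values. Plk1 in iNSC-2 differed from the other clones by -3.84, and by -2.48 without background correction. Top2a, not detected in iNSC-2, read 4.54 there. Another 26 list genes were detected in iNSC-1 and iNSC-3 but not in iNSC-2, including Top2a, Ccna2, Tpx2 and Ndc80. Between iNSC-1 and iNSC-3, none of the 24 genes had a 2-fold range. The 24 genes with a range are thus the brighter part of the list, and counting those alone leaves out genes that were lost from detection in the low clone. By the root mean square of the differences between deviations over the 3 clones, the genes nearest to Cenpa were Cdc20 (0.19), Plk1 (0.23), Pbk (0.28), Cdca3 (0.32) and Prc1 (0.52).

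DNA replication genes detected in all clones followed the mitotic ones with smaller differences. In NSC, 29 of 41 S phase genes had a 2-fold range, against 8.35% of all genes. NSC-3 was highest for all 41 and NSC-2 lowest for 35, against 35.8% and 31.0% of all genes. The median deviations were -0.24, -0.63 and 0.87 in NSC-1, NSC-2 and NSC-3. Tk1, thymidine kinase, stood at 7.10, 5.31 and 8.99 in the 3 NSC clones, although its second probe differed by only 1.19 between NSC-3 and NSC-2, against 3.68 for the first. Mcm5, a subunit of the replicative helicase, stood at 9.18, 8.45 and 11. Uhrf1, which carries DNA methylation through replication, stood at 9.18, 7.98 and 10.78. NSC-1 thus lay near NSC-2 for Mcm5, while for the mitotic genes named above it lay nearer to NSC-3. Without NSC-3, 3 S phase genes had a 2-fold range. In iNSC, 7 of 34 S phase genes had a 2-fold range, against 3.9% of all genes. iNSC-2 was lowest for 27, against 33.7%, and Mcm5 stood at 8.91, 6.93 and 9.05. Another 10 S phase genes were detected in iNSC-1 and iNSC-3 but not in iNSC-2. In NSC, 5 more were detected in NSC-1 and NSC-3 but not in NSC-2. These genes had no measured range, so the counts of S phase genes leave them out. Replication-dependent histone genes, transcribed in S phase, had a 2-fold range in 10 of 29 members in NSC, against 8.35% of all genes. NSC-3 was highest for 28, against 35.8%. The count of 10 was 1 without background correction, 4 with an offset of 50 and 3 without NSC-2. In iNSC it was 2 of 35 (5.71%), near the 3.9% of all genes. Between NSC-1 and NSC-2 none of the 29 histone genes had a 2-fold range, nor did any S phase gene between iNSC-1 and iNSC-3.

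In ESC NPC, none of 52 mitosis genes and none of 51 S phase genes had a 2-fold range, where 0.0131% of all genes did, so nothing is read from these counts about the lists. The median deviations of both lists lay between -0.02 and 0.03 in every clone. Of the 52 mitosis genes, the lowest clone was ESC NPC-1 for 16, ESC NPC-2 for 23 and ESC NPC-3 for 13, against 35.2%, 33.3% and 31.5% of all genes. The highest clone was ESC NPC-1 for 20, ESC NPC-2 for 11 and ESC NPC-3 for 21, against 37.9%, 30.4% and 31.7% of all genes. The widest mitotic range was that of Sgo1, a protector of sister chromatid cohesion, at 7.83, 8.16 and 8.38 in ESC NPC-1, ESC NPC-2 and ESC NPC-3. Top2a stood at 9.11, 9.06 and 9.47. Among inhibitors of the cycle, Cdkn1c, an imprinted gene that encodes a CDK inhibitor, stood at 11.27, 10.75 and 9.54 in the NSC clones. It was lowest in NSC-3, the clone with the highest mitotic genes, but was lower in NSC-2 than in NSC-1, as most mitotic genes were. In iNSC it stood at 7.37, 5.83 and 6.93, lowest in iNSC-2, as most mitotic genes were. The p53 target Ccng1 stood at 10.02, 9.35 and 10.93 in the NSC clones, again lowest in NSC-2 and highest in NSC-3.

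**Figure D2:**
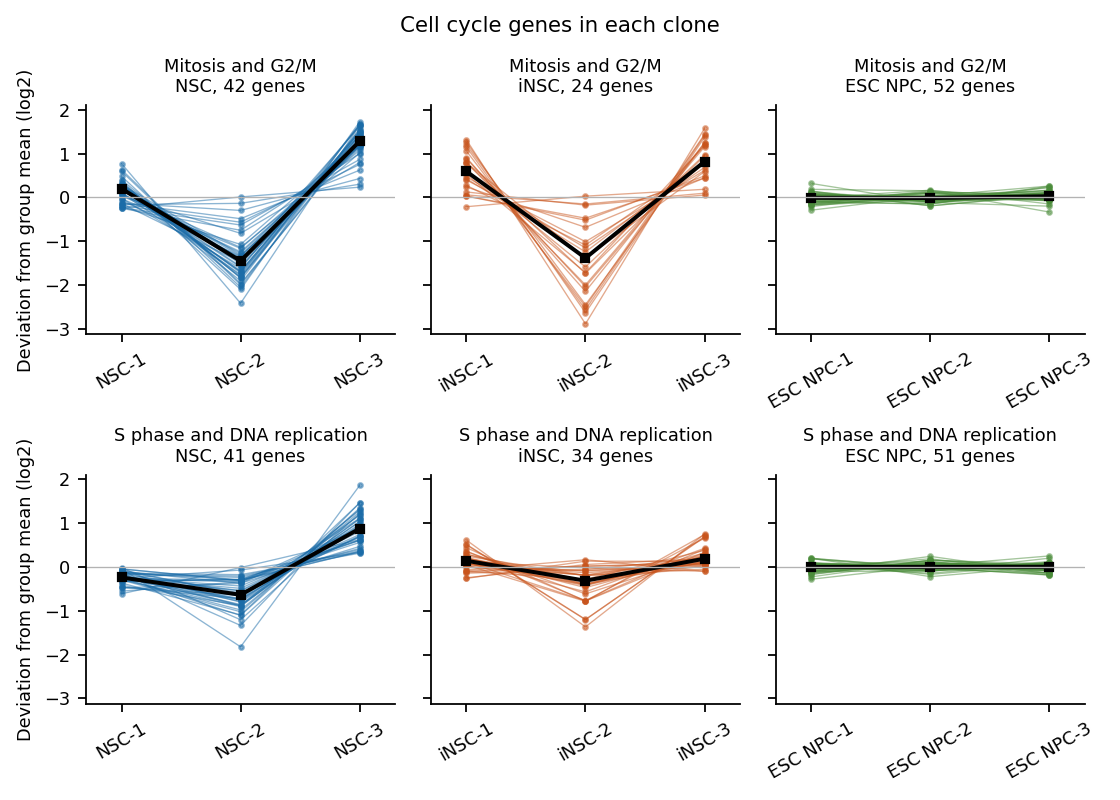
Deviation of each clone from its line's mean (log2 signal, y axis) for every gene of the mitosis list (top) and the S phase list (bottom) detected on all 3 arrays, in NSC, iNSC and ESC NPC; thin lines join the values of 1 gene and black squares are list medians. The medians of the mitosis list are 0.20, -1.45 and 1.28 in NSC-1 to NSC-3 and 0.59, -1.38 and 0.82 in iNSC-1 to iNSC-3, and lie between -0.02 and 0.03 in ESC NPC.

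Oligodendrocyte genes separated NSC-3 from the other NSC clones. Of 11 precursor genes detected in all NSC clones, 8 had a 2-fold range, against 8.35% of all genes. NSC-3 was lowest for 10, against 41.1%. Of 11 genes of maturing and mature oligodendrocytes, 8 had a 2-fold range and NSC-3 was lowest for 8, again against 8.35% and 41.1%. The median deviations in NSC-1, NSC-2 and NSC-3 were 0.40, 0.44 and -0.75 for the precursor list, and 0.38, 0.18 and -0.78 for the mature list. Enpp6, a choline phosphodiesterase of newly forming oligodendrocytes, stood at 9.64, 10.23 and 5.28, a 31.0-fold range and the widest of any gene. Its 5.28 in NSC-3 is not far above the 4.61 of Mag, which was not detected there. No second probe measured it on all NSC arrays. Mbp, which encodes myelin basic protein, stood at 9.72, 8.76 and 5.62, and Bcas1, a marker of early myelinating cells, at 12.68, 12.89 and 10.20. Gpr17, a receptor of committed precursors, stood at 11.58, 11.66 and 9.63, and Nkx2-2, a transcription factor of the lineage, at 8.27, 8.12 and 5.63. NSC-1 and NSC-2 lay within 1 log2 unit of each other in all 5 genes, and NSC-3 lay further below both than they lay apart. Between NSC-1 and NSC-2, 2 of the 11 precursor genes and none of the 11 mature genes had a 2-fold range, and between NSC-1 and NSC-3, 4 of the precursor genes did. Mag and Fa2h, also myelin genes, were detected in NSC-1 and NSC-2 and not in NSC-3, while Mog was detected in none. The genes nearest to Enpp6 over the NSC clones were Mbp (0.80), Rab33a (0.92), Bcas1 (0.99), Nkx2-2 (1.03) and Matn4 (1.05).

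NSC-3 was also the clone with the highest mitotic genes. Both sets of values stand side by side, and their part in each other was not tested. In iNSC, only 8 precursor and 5 mature oligodendrocyte genes were detected in all clones. Of these, 3 and 1 had a 2-fold range, against 3.9% of all genes. Another 5 mature genes, among them Enpp6 and Fa2h, and 1 precursor gene were detected in iNSC-1 and iNSC-3 but not in iNSC-2. They had no measured range. Gpr17 stood at 6.80, 6.79 and 8.28 in iNSC-1, iNSC-2 and iNSC-3, with iNSC-3 alone higher, while Pdgfra, the receptor of precursors, stood at 7.02, 8.09 and 7.93. Bcas1 was level at 11.39, 11.59 and 11.50. Mbp was detected in no iNSC clone.

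Neuronal and astrocytic genes also spread in NSC. Of 25 neuroblast and neuron genes, 7 had a 2-fold range, against 8.35% of all genes. NSC-2 was highest for 18, against 41.5%, and NSC-3 lowest for 19, against 41.1%. Dlx1 and Dlx2, transcription factors of forebrain interneuron precursors, stood at 6.38, 8.95 and 6.99 and at 5.12, 7.23 and 6.06 in NSC-1, NSC-2 and NSC-3. Rbfox3, a splicing factor of mature neurons, stood at 6.66, 7.76 and 5.86. All of these were highest in NSC-2, the clone with the lowest mitotic genes. Of 19 astrocyte genes, 4 had a 2-fold range, against 8.35% of all genes, and NSC-3 was lowest for 14, against 41.1%. Gfap, the astrocyte filament, stood at 8.11, 7.32 and 6.88, and Clu, a secreted chaperone of astrocytes, at 11.85, 11.52 and 10.50. Among 9 forebrain genes, which include Dlx1 and Dlx2 again, 4 had a 2-fold range, against 8.35% of all genes. NSC-2 was highest for 8, against 41.5%, and NSC-1, not NSC-3, lowest for 7, against 27.8%. With detection on all 9 arrays required, no forebrain gene, 2 neuronal and 2 astrocyte genes had a 2-fold range. The homeobox gene Lhx2 stood at 5.28, 6.51 and 6.01. Without NSC-2, 1 neuronal gene and no forebrain gene kept a 2-fold range, and without NSC-3, 4 neuronal genes and no astrocyte gene did. Without NSC-1, 2 astrocyte and 2 forebrain genes did.

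In iNSC, of 14 neuroblast and neuron genes detected in all clones, 5 had a 2-fold range, against 3.9% of all genes, and iNSC-1 was lowest for 8, against 37.8%. Gad1, which makes the transmitter GABA, stood at 6.45, 8.39 and 7.04, and its second probe differed by 2.16 between iNSC-2 and iNSC-1. Dcx, a microtubule protein of migrating neuroblasts, stood at 5.18, 6.29 and 6.96. Both were lowest in iNSC-1. Mapt, which encodes the microtubule protein tau, stood at 8.12, 9.29 and 7.96 and was lowest in iNSC-3. Tubb3 and Elavl3 were detected in iNSC-1 and iNSC-3 but not in iNSC-2, and another 4 list genes were missing on iNSC-1 alone. The list thus had no single low clone. Without iNSC-1, 2 of the 14 genes had a 2-fold range, and without iNSC-2, 1 did. Of 21 astrocyte genes, 2 had a 2-fold range (9.52%), against 3.9% of all genes. The gap junction gene Gja1 stood at 5.70, 7.36 and 6.35 and Sparcl1, which promotes synapses, at 8.55, 9.62 and 8.53.

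Glycolytic and hypoxia-responsive genes marked NSC-1. Of 25 such genes detected in all NSC clones, 12 had a 2-fold range, against 8.35% of all genes. NSC-1 was highest for 24, against 22.6%. The median deviations were 0.46 in NSC-1, -0.48 in NSC-2 and -0.12 in NSC-3. Vegfa, the vascular growth factor, stood at 10.63, 7.92 and 7.01, a 12.3-fold range, and its second probe differed by 2.25 between NSC-1 and NSC-3. Ldha, which reduces pyruvate to lactate, stood at 12.45, 10.01 and 11.12, and Pdk1, which keeps pyruvate from the mitochondrion, at 8.41, 6.54 and 6.14. NSC-1 was the highest clone in all 3, and the lowest was NSC-3 for Vegfa and Pdk1 and NSC-2 for Ldha. Without NSC-1, 3 of the 25 genes had a 2-fold range, and without NSC-2, 5 did. Adm and Car9, which also respond to low oxygen, were detected in NSC-1 and NSC-3 but not in NSC-2. In iNSC, 1 of 26 genes of the list (3.85%) had a 2-fold range, near the 3.9% of all genes. In ESC NPC none of 27 did, where 0.0131% of all genes did.

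**Figure D3:**
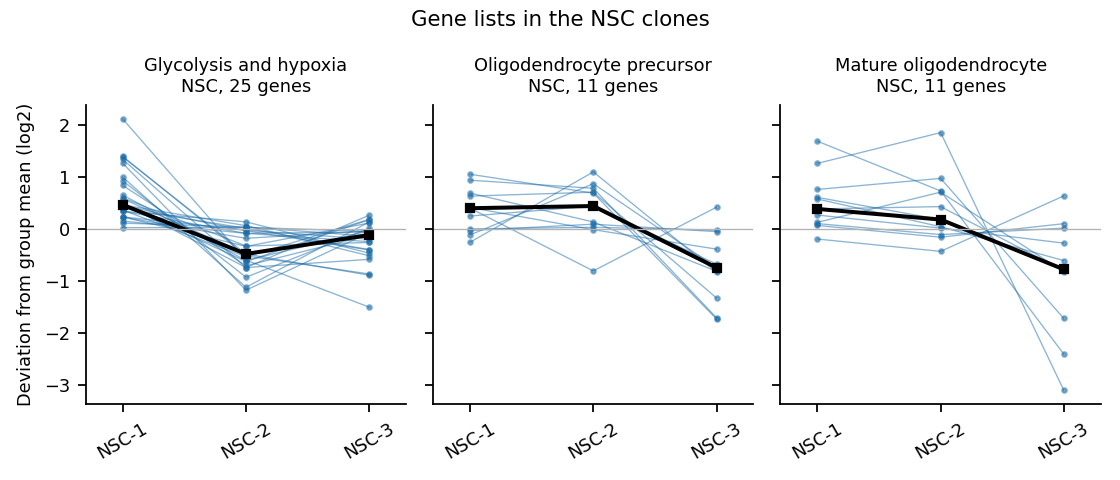
Deviation of each NSC clone from the NSC mean (log2 signal, y axis) for the genes of 3 lists detected on all NSC arrays; thin lines join the values of 1 gene and black squares are list medians. The hypoxia list is highest in NSC-1 with a median of 0.46, and the 2 oligodendrocyte lists are lowest in NSC-3 with medians of -0.75 and -0.78.

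The promoter of Ldha is shown because it held the largest number of ACGTG cores in the hypoxia list, 5 counted over both strands, in the 280 bases at chr7:46845554-46845833, plus strand. Capitals mark ACGTG or its complement CACGT, which overlap in the palindrome CACGTG, where each strand counts once.
Ldha: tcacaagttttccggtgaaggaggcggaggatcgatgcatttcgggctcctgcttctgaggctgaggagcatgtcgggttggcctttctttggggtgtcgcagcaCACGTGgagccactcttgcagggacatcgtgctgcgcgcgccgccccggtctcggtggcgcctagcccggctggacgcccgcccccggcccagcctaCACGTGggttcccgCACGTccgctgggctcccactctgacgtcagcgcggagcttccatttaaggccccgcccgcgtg
Of 24 hypoxia list genes with a promoter, 41.7% held ACGTG, against 26.0% of promoters of genes detected in NSC and 18.6% of all promoters. The windows of Vegfa and Pdk1 did not hold these letters. ACGTG was also in 28.6% of the mitosis promoters.

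Genes downstream of growth factor signalling spread in both NSC and iNSC. Of 14 immediate early genes in NSC, 6 had a 2-fold range, against 8.35% of all genes. In iNSC 8 of 15 did, against 3.9%. Egr1, a zinc finger factor induced within minutes of ERK activation, stood at 11.44, 9.14 and 12.33 in NSC-1, NSC-2 and NSC-3 and at 12.90, 10.82 and 11.93 in iNSC-1, iNSC-2 and iNSC-3. Fos, a partner in the AP-1 complex, stood at 10.83, 7.61 and 9.85 in the NSC clones. Fos in the iNSC clones stood at 11.78, 10.29 and 9.97. Both genes were lowest in NSC-2, and in iNSC Egr1 was lowest in iNSC-2 but Fos in iNSC-3. Over the list, NSC-2 was lowest for 8 of 14 genes and highest for the other 6, against 31.0% and 41.5% of all genes. iNSC-1 was highest for 10 of 15, against 33.4%. Dusp6, the phosphatase that switches off ERK, stood at 8.88, 8.15 and 10.39 in NSC and at 10.22, 8.85 and 10.23 in iNSC. Its second probe differed between the same highest and lowest clones by 1.81 in NSC and 1.54 in iNSC. Etv4, an ETS factor induced by FGF, stood at 6.82, 5.50 and 6.93 in NSC and at 7.49, 6.20 and 6.86 in iNSC. Over the feedback list, 4 of 12 genes in NSC and 4 of 11 in iNSC had a 2-fold range. The shares of all genes were 8.35% and 3.9%. Without NSC-2, 1 immediate early gene and 1 feedback gene of NSC had a 2-fold range. Without iNSC-1, 2 immediate early and 2 feedback genes of iNSC did, and without iNSC-2 no feedback gene did. Egfr itself spread little, with 10.01, 9.73 and 10.30 in NSC and 10.48, 10.44 and 10.50 in iNSC.

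Matrix and secreted genes varied in both lines as well. Of 21 fibroblast and matrix genes in NSC, 8 had a 2-fold range, against 8.35% of all genes. NSC-2 was lowest for 15, against 31.0%, with a median deviation of -0.39. Lgals1, which encodes galectin-1, stood at 12.24, 7.99 and 12.55 in the NSC clones and at 12.48, 10.38 and 11.73 in the iNSC clones. Timp1, an inhibitor of metalloproteinases, stood at 8.10, 5.14 and 7.64 in NSC, with a second probe that differed by 2.84 between NSC-1 and NSC-2. Col1a1 and Col1a2, the collagen genes that define fibroblasts, were detected on none of the 9 arrays, and Dcn on no NSC or iNSC array. In iNSC, 9 of 19 genes of this list had a 2-fold range, against 3.9% of all genes. iNSC-1 was highest for 14, against 33.4%. Igfbp7 stood at 10.64, 9.57 and 8.30 and Igfbp3 at 8.72, 6.80 and 7.72, and Igfbp2, which is outside the list and like them binds insulin-like growth factors, at 11.34, 7.70 and 9.57. iNSC-1 was the highest clone for each of them. Without NSC-2, 2 of the 21 list genes of NSC had a 2-fold range. In iNSC, 4 of the 19 did without iNSC-1 and 5 without iNSC-2.

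Of 16 interferon-stimulated genes in NSC, 8 had a 2-fold range, against 8.35% of all genes, and NSC-2 was lowest for 10, against 31.0%. The count of 8 was 0 without background correction and 5 with an offset of 50. Without NSC-1, NSC-2 or NSC-3 in turn, 4, 3 and 5 genes had a 2-fold range. Gbp2, a guanylate-binding protein of the interferon response, stood at 7.15, 5.06 and 6.59. In iNSC, 1 of 15 members (6.67%) had a 2-fold range, near the 3.9% of all genes. iNSC-1 was highest for 10, against 33.4% of all genes, with a median deviation of 0.35.

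Other lists held few or no genes with a 2-fold range. None of 66 respiratory chain genes in NSC, 1 of 66 in iNSC and none in ESC NPC had a 2-fold range. Among 53 ribosomal protein genes, 1 in NSC, 1 in iNSC and none in ESC NPC did. Lists with few such genes could nevertheless lean together by small amounts. iNSC-2 was lowest for 42 of 53 ribosomal protein genes, against 33.7% of all genes, with a median deviation of -0.18. NSC-3 was highest for 26 of 28 proteasome genes, against 35.8% of all genes, with a median of 0.18. Cholesterol synthesis genes were lowest in clone 1 for 12 of 18 in NSC and 14 of 18 in iNSC, with medians of -0.16 and -0.15. Clone 1 was lowest for 27.8% of all genes in NSC and 37.8% in iNSC. The Hox genes, which hold positional identity, were detected in all iNSC clones for 16 members, and none of these had a 2-fold range, where 3.9% of all iNSC genes did. Xist stood at 9.27, 9.32 and 9.13 in the NSC clones and was detected in no iNSC or ESC NPC clone. Of 17 neural stem and radial glia genes, 3 in NSC (17.6%) and 1 in iNSC (5.88%) had a 2-fold range. The shares of all genes were 8.35% and 3.9%. The filament gene Nes stood at 8.31, 7.62 and 9.38 in NSC and at 9.0, 9.01 and 9.35 in iNSC, while Hes5, a Notch effector, stood at 8.58, 7.08 and 8.14 in iNSC.

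**Figure D4:**
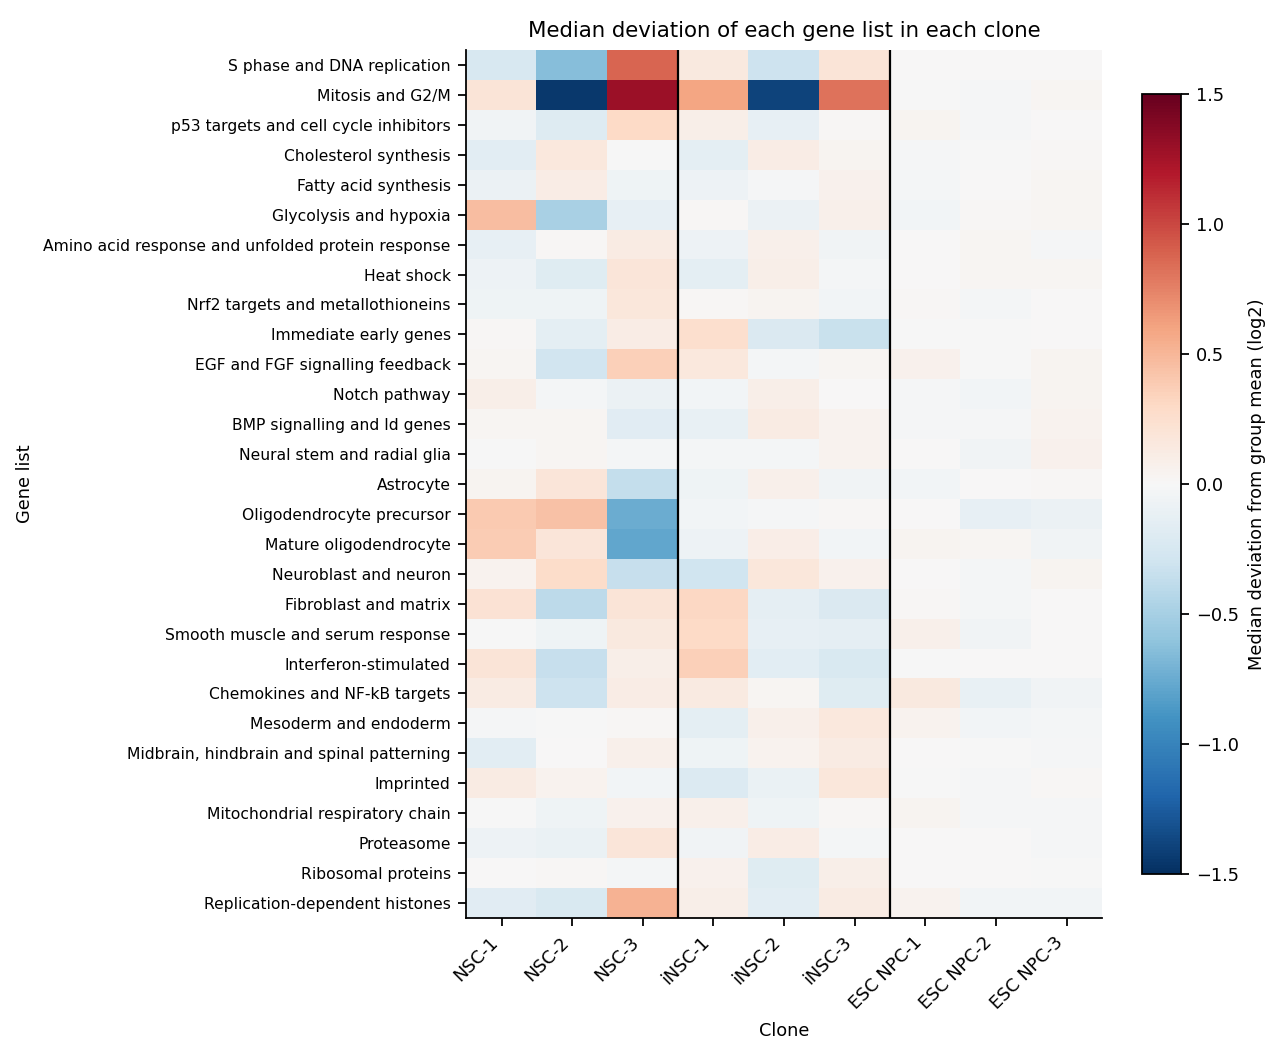
Median deviation (log2 signal, colour scale) of the detected genes of 29 lists, in rows, in the 9 clones, in columns; lists with fewer than 5 detected genes in any line are left out. The mitosis list has the strongest values, from -1.45 in NSC-2 to 1.28 in NSC-3, and the ESC NPC columns are close to 0 throughout.

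Over the 20 chromosomes with at least 20 detected genes, median deviations lay between -0.05 and 0.05 in NSC, -0.06 and 0.07 in iNSC, and -0.04 and 0.03 in ESC NPC.

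The clones with the same number in NSC and iNSC deviated in similar ways. Across 8273 probes detected on all 9 arrays, the deviations of iNSC-1 and NSC-1 correlated at 0.264, those of iNSC-2 and NSC-2 at 0.514 and those of iNSC-3 and NSC-3 at 0.277. Between other numbers the values ran from -0.388 to 0.216. Without the cell cycle lists the same-number values were 0.258, 0.432 and 0.185. The correlation is across probes, which are not independent, and deviations of 3 clones sum to 0, so the 3 values are tied to one another. ESC NPC showed no such likeness to NSC, with same-number values of -0.053 to -0.003, and reached 0.064 to 0.180 with iNSC. The labels do not say what a number marks.

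Of 6780 genes detected in all clones of NSC and of iNSC, 462 had a 2-fold range in NSC, 251 in iNSC and 117 in both. The shared genes are 46.6% of those in iNSC, where 6.81% of all genes had a 2-fold range in NSC. They are 25.3% of those in NSC, where 3.7% of all genes had one in iNSC. The clone numbered 2 was lowest in both lines for 74 of the 117 (63.2%), against 16.2% of all genes detected in both lines. The 16.2% is over all genes, not those with a wide range. Among genes with a 2-fold range, clone 2 was lowest for 335 of 606 in NSC and for 154 of 280 in iNSC. The 28 shared cell cycle genes were all among the 74. Outside the cell cycle lists, clone 2 was lowest in both lines for 46 of 89 genes (51.7%). Some of the 46 encode cell division proteins that the lists do not hold, among them Cenpn, Cenpp, Kif18a, Spag5 and Dbf4, and others do not, among them Egr1, Dusp6, Etv4, Lgals1 and Igfbp2. Igfbp2 stood at 11.34, 7.70 and 9.57 in the iNSC clones and at 10.00, 7.97 and 10.50 in the NSC clones. Emp2, a membrane protein, ran the other way and was highest in clone 2 of both, at 8.24, 10.33 and 8.46 in iNSC and at 10.02, 11.23 and 9.14 in NSC. Other shared genes did not keep their order: Dcx was lowest in iNSC-1 but in NSC-3, where it stood at 8.27, against 9.53 and 10.00 in NSC-1 and NSC-2. No gene had a 2-fold range in all 3 lines. Since 1 of 7647 genes (0.0131%) had one in ESC NPC, at most 1 could. The count of 117 was 52 without background correction, 73 with an offset of 50 and 205 with the deposited values.

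**Figure D5:**
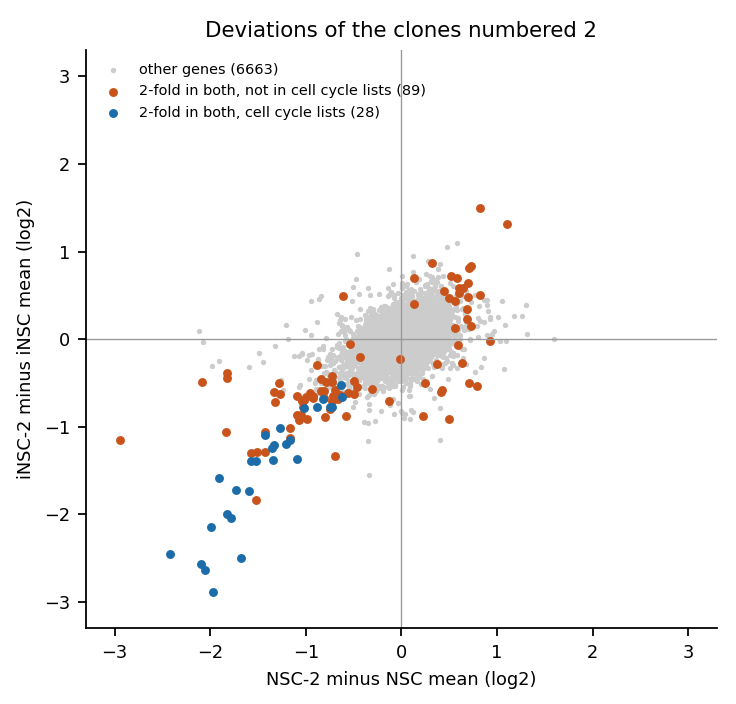
Deviation of iNSC-2 from the iNSC mean (y axis) against that of NSC-2 from the NSC mean (x axis), both in log2 signal, for the 6780 genes detected in all clones of both lines. Blue points are the 28 cell cycle genes with a 2-fold range in both lines, all in the lower left, and orange points the 89 other genes with a 2-fold range in both.

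Each clone was also tested against the other clones of its line with limma, on the 3 arrays of that line alone and with p-values adjusted over its genes. The tested arm is 1 array and the spread comes from the other 2, so that 1 residual degree of freedom per gene is left and the tests depend on the variance that limma borrows across genes. The SE and p below carry that limit. In iNSC-2, 33 of 7187 genes passed at an adjusted p under 0.05 (0.459%): 3 were higher and 30 lower, and 19 of the 33 were cell cycle list genes. Cenpa stood at 7.15 in iNSC-2, against 11.35 and 11.61 in the other clones, and differed by -4.33 ± 0.18 (SE, limma adjusted p = 0.00017). The genes that were higher in iNSC-2 were the secreted ribonuclease gene Rnase1, by 2.24 ± 0.20 (limma adjusted p = 0.004), Emp2, by 1.98 ± 0.19 (limma adjusted p = 0.007), and the matrix gene Ccdc80, by 1.42 ± 0.18 (limma adjusted p = 0.02). A fit of all 9 arrays takes its error from all 3 lines together, with the arrays weighted by line. In it none of these 33 calls was made, either without a block or with a replicate block for the clone's number. Cenpa differed by -4.33 in the first and by -3.72 in the second. Nor was any call made for iNSC-2 with iNSC-1 or iNSC-3 left out.

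In NSC-2, 1 of 7260 genes passed (0.0138%): Lgals1 stood at 7.99 in NSC-2, against 12.24 and 12.55, and differed by -4.41 ± 0.22 (SE, limma adjusted p = 0.023). No gene passed for NSC-1, NSC-3, iNSC-1 or iNSC-3 in limma, where 52, 887, 565 and 52 genes had an unadjusted p under 0.05. In the fit of all 9 arrays, 2 genes passed for NSC-2 and 3 for NSC-3 with the replicate block, and 15 and 11 without it. None of the 42 mitosis genes of NSC passed singly, with list medians of -1.45 in NSC-2 and 1.28 in NSC-3.

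In ESC NPC-1, 104 of 7647 genes passed (1.36%), 34 higher and 70 lower, with differences of 0.22 to 0.84 in size, and 4 of them were cell cycle list genes. Here the prior degrees of freedom that limma estimated were infinite, so every gene took its variance from the trend with level and none from its own clones. The deviations of first and second probes correlated at only 0.244 in this clone. Bex1, an adaptor protein gene on the X chromosome, stood at 6.03 in ESC NPC-1, against 6.64 and 7.10, and differed by -0.84 ± 0.17 (SE, limma adjusted p = 0.0011). Its second probe differed by -0.20 between ESC NPC-3 and ESC NPC-1, against 1.07 for the first, and so went the other way. Mtfp1, a mitochondrial fission gene, stood at 6.15 in ESC NPC-1, against 5.21 and 5.44, and differed by 0.82 ± 0.20 (limma adjusted p = 0.0091). No gene passed for ESC NPC-2 or ESC NPC-3 in limma, with 240 and 272 at an unadjusted p under 0.05. Without a trend of the prior variance with level no gene passed for ESC NPC-1, and none passed for it in the fit of all 9 arrays with or without the replicate block. For ESC NPC-2, 40 genes passed in that fit with the block and 0 without it. Pluripotency genes, 23 of which were detected in all ESC NPC clones, had no 2-fold range, where 0.0131% of all genes did. Nanog, a factor of the pluripotent state, stood at 9.22, 9.49 and 9.44.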

How the data were processed

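The authors deposited, for each array, 1 signal intensity and 1 detection p-value per probe. A further deposited table holds normalized values, taken here to be log2 because of their range. The submitters' processing notes name BeadStudio 3.2, RMA and lumi, without role or order. With limma 3.58.1 and statmod 1.5.0 in R 4.3.3, the background of all 13 arrays was corrected by normexp, using detection p-values and adding 16 as an offset. Quantile normalization and log2 followed. These values correlated with the deposited log2 values at r = 0.980 across probes on each array. The r was identical on all 13 arrays, so it is no separate check of any single array.

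Of 25697 probes, 23978 had 1 gene symbol and 1719 are unnamed here. Symbols were updated by gene identifier to RefSeq GRCm38.p6, which 16 probes did not match. Each gene was represented, in each line, by the brightest of its probes detected on all 3 arrays. Each clone was compared with the other clones of its line by limma with a trended prior, two-sided, with Benjamini-Hochberg adjustment over the genes of that line and a threshold of 0.05. A 2-fold range is a description with no test. P-values measure the spread between arrays, which may be technical.

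The 38 gene lists hold 1182 genes, 1067 of them with a probe. The genes studied and the lists were chosen with earlier results of these data known. Genes named are the 8 widest ranges per line, the 3 widest of each list, the 4 highest and 4 lowest called genes per clone, the 5 genes nearest to the widest one, and a few fixed markers. Predicted genes were passed over. Ccna2, Ube2c, Tpx2, Ndc80, Mag, Fa2h, Adm, Car9, Dcn, Egfr, Flt1, Tubb3, Elavl3, Pou5f1, Nanog and the genes named as shared by both lines were added after their values were seen.

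The NSC and iNSC clone numbers were treated as pairing the clones, because deviations correlated above 0.1 in all 3 same-numbered pairs (0.264, 0.514 and 0.277). The labels do not say so. A pair of unlike number, iNSC-1 with NSC-3, also lay above 0.1, at 0.216. Fits that hold the number as a replicate block are given beside the tests. The block covered the ESC NPC clones too, although their same-number values with NSC were -0.053 to -0.003. Calls for ESC NPC clones with the block carry that limit. Alternatives were no background correction, median scaling, normalizing the 9 arrays alone, the deposited values, an offset of 50, other detection filters, averaging all probes of a gene, a 1.5-fold range, 1 fit of all 9 arrays, no trend of the prior, the replicate block and leaving out each clone. Counts without the cell cycle lists and the same-number correlations under other normalizations were added after seeing the data. The column names give no chip barcode, so no block by chip was fitted.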

Additional observations from a re-analysis of the deposited data

How the results depend on the processing

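The number of genes with a 2-fold range depends on the scale of the values, and in every alternative that kept all 9 clones NSC had the most such genes and ESC NPC the fewest. Without background correction the counts were 270 for NSC, 112 for iNSC and 0 for ESC NPC. With an offset of 50 they were 387, 172 and 0, and with the deposited values 933, 525 and 80. A 1.5-fold range gave 1854, 1272 and 159. In ESC NPC the count was 2 with a detection p under 0.05, and 0 with detection on all 9 arrays or with the mean of the probes. Leaving out 1 clone gave 219 to 497 genes in NSC (219 without NSC-2 and 233 without NSC-3), 77 to 227 in iNSC (77 without iNSC-2 and 110 without iNSC-1) and 0 to 1 in ESC NPC. These ranges are over 2 clones and so are smaller by construction than those over 3. The medians of 24 lists, as the difference between their highest and lowest clone, kept their direction in all 192 values computed with other normalizations, filters and probe choices, and 71 of 264 counts of 2-fold genes in these lists moved by over 1.5 times. Leaving out a clone does not bear on a difference between 2 clones, so it was not run for these medians.

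Calls for single clones were not stable. Median scaling gave 4 for NSC-2, 65 for iNSC-2 and 51 for ESC NPC-1. The deposited values gave 3 for NSC-2, detection on all 9 arrays 14 for NSC-2, and no background correction 11 for iNSC-1. One fit of all 9 arrays gave 3 for NSC-1, 15 for NSC-2, 11 for NSC-3, 3 for iNSC-1, 0 for iNSC-2 and 0 for ESC NPC-1. No trend of the prior gave 0 for NSC-2 and 0 for ESC NPC-1. The fit of all 9 arrays with the replicate block gave 2 for NSC-2, 3 for NSC-3, 0 for iNSC-2, 0 for ESC NPC-1 and 40 for ESC NPC-2. Without the block it gave 15, 11, 0, 0 and 0. The counts for iNSC-2 and ESC NPC-1 were already 0 without the block, so its effect on them cannot be seen. Leaving out another clone of the line gave 15 to 33 for NSC-1, 5 to 33 for NSC-2, 5 to 15 for NSC-3, 0 for iNSC-2, 1 for ESC NPC-1, 0 to 1 for ESC NPC-2 and 0 to 1 for ESC NPC-3, where 1 array is set against 1, the error comes from the other lines and the lone clones are assumed to vary like them. The cause of the changes in the counts of calls was not tested. The 3 arrays of a line limit the precision of every call.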
